A study of Homo sapiens with 6 samples.

Results

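The regions described here are the PPARG peaks of the esophageal adenocarcinoma cell line Eso26 that overlapped a PPARG peak of a second such line, OE33, by at least 1 bp on chromosomes 1 to 22 and X. They numbered 1262 of 6935 Eso26 peaks on these chromosomes, or 18.2%, and they met 1268 of 9496 OE33 peaks, or 13.4%. Both lists together held 16662 peaks on all sequences. The regions were chosen by the positions of the called peaks in both lists, and fold enrichment and width come from the same calls, so their values are given as a description and nothing was tested.

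PPARG binding was measured by chromatin immunoprecipitation and sequencing (ChIP-seq) with an anti-PPARG antibody, and each line has 1 peak list. The culture medium was RPMI-1640 for Eso26 and DMEM for OE33, each with fetal bovine serum, so line and medium cannot be told apart. The labels name no treatment for the ChIP-seq samples; the transfection they describe, with a non-silencing siRNA or an siRNA against PPARG (siPPARG), belongs in the titles to the 4 RNA-seq libraries, 1 per line and treatment. With 1 list per line there is no spread between replicates, and a shared peak is the only repeat observation of a site.

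PPARG is a nuclear receptor that responds to fatty acids and related lipids. It binds DNA as a partner of a retinoid X receptor (RXR), typically at a direct repeat of a short hexamer, and is best known as the master regulator of fat cell differentiation; it is also expressed in epithelia of the gut. ChIP-seq maps where such a complex, or a complex tethered to other factors, is held on chromatin. A peak is a stretch where immunoprecipitated fragments pile up above the number expected from the background. Its fold enrichment, here the authors' value for each peak, compares that pileup with the expected one at the summit, the highest point.

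The receptor itself was at very different RNA levels in the lines. PPARG (ENSG00000132170) had 259 counts in the Eso26 control library (11.3 CPM, the count scaled to the library total, exact Poisson 95% interval 9.92 to 12.7) and 2156 counts in the OE33 control (128 CPM, interval 122 to 133). RXRA, the gene of its usual dimer partner, stood at 61.2 CPM (interval 58.0 to 64.4) in Eso26 and 133 CPM (interval 127 to 139) in OE33. RXRB went the other way, at 41.7 CPM (interval 39.1 to 44.4) in Eso26 and 31.0 CPM (interval 28.4 to 33.8) in OE33. RXRG had 0 counts in both controls, with upper limits of 0.160 CPM in Eso26 and 0.219 CPM in OE33. The related receptor genes were also higher in OE33, with PPARA at 47.1 CPM (interval 44.3 to 49.98) against 79.3 CPM (interval 75.1 to 83.6) and PPARD at 21.2 CPM (interval 19.4 to 23.2) against 185 CPM (interval 178 to 191). These intervals cover counting error only, and each is 1 library without a further scaling factor. In siPPARG libraries PPARG held 201 counts in Eso26 (9.79 CPM, interval 8.48 to 11.2) and 313 in OE33 (17.2 CPM, interval 15.4 to 19.3). The Eso26 interval overlapped that of the Eso26 control, and the OE33 interval lay below that of the OE33 control.

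Both lines carried the epithelial markers, with those of other cells at 0 or far lower. The lowest of the 6 epithelial markers (EPCAM, CDH1, KRT8, KRT18, KRT19 and ERBB2) stood at 420 CPM in the Eso26 control and 521 CPM in the OE33 control, with summed levels of 7701 CPM in Eso26 and 9719 CPM in OE33. The fat cell genes ADIPOQ, PLIN1 and LEP summed to 0.0869 CPM in Eso26 and were all at 0 counts in OE33, and the immune genes PTPRC, CD3E and CD68 were at 0 in both controls. The mesenchymal list (VIM, COL1A1, COL3A1) summed to 5.78 and 4.15 CPM, and the squamous list (TP63, KRT5, KRT14) to 2.52 and 0.356 CPM, in Eso26 and OE33 respectively. Single genes held most of these sums, with COL1A1 at 5.60 and 3.56 CPM and KRT5 at 2.52 CPM in Eso26. Within the epithelial sums, ERBB2 held 2878 CPM in Eso26 and 1098 CPM in OE33.

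Most shared sites were a simple match of single peaks. The lists met in 1292 overlapping pairs, of which 1187 joined 1 Eso26 peak to 1 OE33 peak. Of the Eso26 members, 28 overlapped more than 1 OE33 peak, with 3 as the most, and 24 OE33 partners overlapped 2 Eso26 peaks. The overlap ran from 2 bp to 1147 bp with a median of 249 bp, and in 680 pairs (52.6%) one peak lay wholly inside the other. The counting intervals of the shares were 17.3% to 19.1% for Eso26 and 12.7% to 14.1% for OE33 (Wilson 95%). Wilson intervals, here, below and in the figures, treat the peaks of 1 list as separate draws. They hold no spread between libraries. The shares also depend on what counts as shared. A reciprocal overlap of 50% left 517 Eso26 peaks. Summits within 100 bp, a rule that does not ask for an overlap, gave 616.

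At the edge of the rule, the overlap was a few bases. The smallest overlap, 2 bp, joined chr2:96873880-96874242 in Eso26 (hg19, as all coordinates here) at 6.97-fold to an OE33 peak at 5.61-fold, with summits 308 bp apart. At chr8:56986733-56987031 the peaks overlapped by 3 bp and stood at 5.85-fold and 6.71-fold. Just outside, the Eso26 peak chr17:4843191-4843426 (9.06-fold) ended 3 bp short of an OE33 peak at 5.36-fold. In all, 72 pairs overlapped by under 50 bp, and 54 Eso26 peaks outside the set had an OE33 peak within 100 bp. The unshared Eso26 peaks had a median gap of 81864 bp to the nearest OE33 peak, and 5.66% of them had one within 1000 bp.

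The fold values rest on few fragments. For each of the 6935 and 9496 peaks, the deposited fold and p-value together were met by a whole number of fragments at the summit, so the pileup behind each value could be rebuilt. Shared peaks had a median of 13 fragments at the Eso26 summit (range 6 to 171) and 11 at the OE33 summit (range 5 to 227), and 584 members had under 10 fragments in at least 1 line. Under 10 fragments stood 15.1% of Eso26 members, beside 22.7% of all Eso26 peaks. In OE33 it was 37.6% of partners, beside 36.1% of all OE33 peaks. The expected pileup at most summits was under 1 fragment, with a floor of 0.491 in each list, so 1 fragment more or less moves a fold by 0.671 at that floor. Intervals of single folds below are exact Poisson 95% intervals of the pileup at a fixed expected level; they cover counting error only, and a summit is by choice the highest point of its peak.

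Shared peaks were as strong as other peaks at the median and stronger at the top. In Eso26 their median fold was 7.81 (quartiles 6.24 and 10.4), against 7.38 (6.14 and 9.39) for the 5673 unshared peaks. In OE33 it was 6.71 (5.41 and 11.4) against 6.68 (5.41 and 9.02) for 8228 unshared peaks. The lists part at the upper end: the value exceeded by 1 in 10 peaks was 26.5-fold among OE33 partners and 13.7-fold among unshared OE33 peaks, and in Eso26 it was 14.1-fold against 12.1-fold. At 10-fold or more stood 359 Eso26 members (28.4%, with 21.7% of all Eso26 peaks) and 355 OE33 partners (28.0%, with 21.3% of all OE33 peaks). At 20-fold or more stood 190 OE33 partners, or 15.0%, beside 5.17% of the whole OE33 list, and 32 Eso26 members, or 2.54%, beside 1.15% of the whole Eso26 list.

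The share of peaks found in the other line was highest at the strong end of each list. Of the 50 strongest OE33 peaks, 41 (82%, Wilson interval 69.2% to 90.2%) had an Eso26 partner, and of the 50 strongest Eso26 peaks 25 (50%, interval 36.6% to 63.4%) had an OE33 partner. In the top 10% of the OE33 list, from 14.8-fold upwards, 252 of 950 peaks (26.5%, interval 23.8% to 29.4%) were shared, whereas the other 10% steps of the list held between 8% and 14.1%. In the top 10% of the Eso26 list, from 12.3-fold upwards, 191 of 694 (27.5%, interval 24.3% to 31.0%) were shared, and the other steps held between 14.1% and 21.4%. Width moved with this: with each list split into 3 equal parts by width, the widest OE33 peaks were shared at 17.0% and the narrowest at 11.5%, and for Eso26 these were 21.7% and 14.9%. A wide peak meets a partner more easily, and the part of width in these shares was not tested. Under a reciprocal overlap of 50%, which a wide peak over a much narrower partner cannot meet, 28% of the 50 strongest OE33 peaks and 24% of the 50 strongest Eso26 peaks were shared, beside 5.44% of all OE33 and 7.45% of all Eso26 peaks under that rule. With summits within 100 bp, a rule without width, 72% of the 50 strongest OE33 peaks and 30% of the 50 strongest Eso26 peaks were matched, beside 6.49% of all OE33 and 8.88% of all Eso26 peaks.

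**Figure D1:**
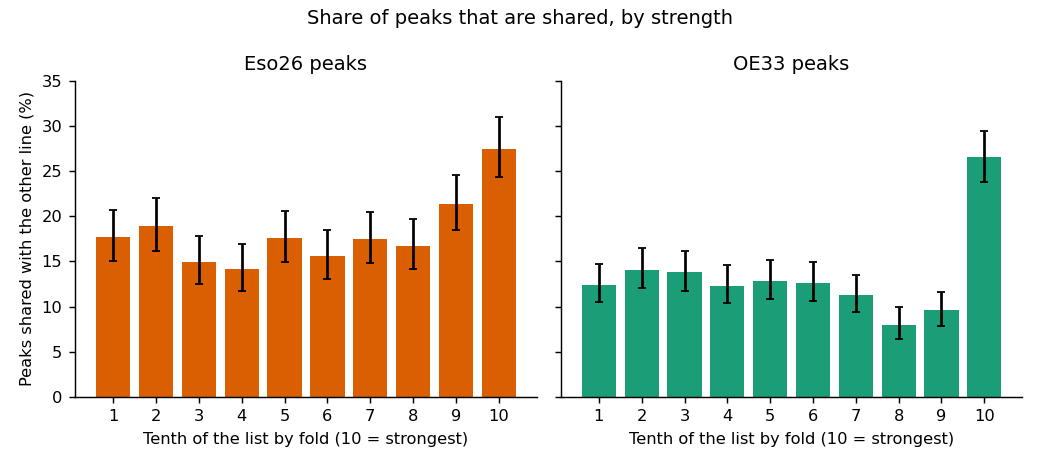
Share of peaks with a partner in the other line (vertical axis, percent) in each of 10 equal steps of a peak list ordered by fold enrichment (horizontal axis, 10 the strongest), for Eso26 on the left and OE33 on the right; bars are shares and error bars Wilson 95% intervals. The strongest step stands above the rest in both, at 27.5% in Eso26 and 26.5% in OE33.

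Over the whole set, the fold in one line did not follow that in the other, although the very strongest OE33 sites were above the typical member in Eso26. Over the 1262 shared peaks, the fold in Eso26 and that of the strongest OE33 partner had a Spearman correlation of -0.0051. This is a description across sites that share 2 libraries. Members had to be called in both lists and rest on medians of 13 fragments in Eso26 and 11 in OE33. The part of the calling limit and of counting error in the correlation was not tested. Under a reciprocal overlap of 50% the correlation over pairs was 0.22, the highest of the alternatives, against -0.015 over all 1292 pairs. The other alternatives ran from -0.057 (50% of the shorter peak) to 0.067 (at least 10 fragments in both lists). The reciprocal rule drops pairs of very unlike width, and the part of width in its correlation was not tested. Of the members, 191 (15.1%) were in the top 10% of the Eso26 list and 260 (20.6%) had a partner in the top 10% of the OE33 list, and 42 were in both. Among the 260, 16.2% were in the Eso26 top 10%, close to the 15.1% among all members. The 41 matched peaks of the 50 strongest in OE33 had Eso26 folds from 5.40 to 31.9 with a median of 10.7, against 7.81 over all members, and 16 of them were in the Eso26 top 10%. The 25 matched peaks of the 50 strongest in Eso26 had OE33 folds from 4.51 to 79.1 with a median of 7.19, and 6 were in the OE33 top 10%.

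**Figure D2:**
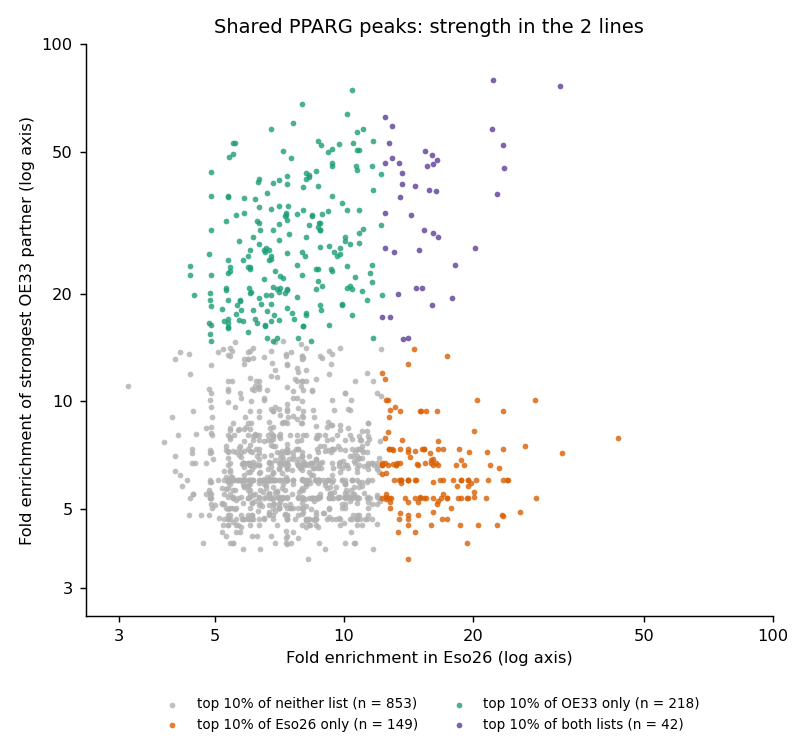
Fold enrichment of each of the 1262 shared peaks in Eso26 (horizontal, log axis) and of its strongest OE33 partner (vertical, log axis), one point per peak, coloured by whether it is in the top 10% of each list. The points form an L with 218 peaks strong in OE33 alone, 149 strong in Eso26 alone and 42 strong in both.

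Counting intervals separated the 2 libraries at a minority of shared sites. The OE33 interval lay above the Eso26 interval at 216 members (17.1%) and the Eso26 interval above the OE33 interval at 64 (5.07%), and the intervals overlapped at 982. The 216 had a median of 30.1-fold in OE33 and 7.34-fold in Eso26, and the 64 had 5.36-fold and 18.9-fold. These compare 2 libraries, not the lines, and differences in how well each immunoprecipitation worked shift a whole list. Over all members the median ratio of OE33 to Eso26 fold was 0.923, with a range from 0.181 to 9.59.

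The 10 shared peaks strongest in Eso26 and the 10 strongest in OE33 are given as examples; ranking by the fold of one line favours a lower value in the other, so their differences support nothing by themselves. The first by Eso26 fold was chr16:27334103-27334826, with 43.6-fold in Eso26 (70 fragments, interval 34.1 to 54.9) and 7.90-fold in OE33 (20 fragments, interval 4.97 to 11.998). The Eso26 peak was 724 bp wide and its summit lay 38 bp from that of OE33. At chr16:70284929-70285768 the folds were 32.2 and 7.19, on 47 and 10 fragments.

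At chr13:79175616-79176817 the summits lay 4 bp apart, with 28.1-fold in Eso26 and 5.36-fold in OE33, the latter on 7 fragments. The next in order were chr15:95120022-95120765 (27.9-fold and 10.1-fold, summits 2 bp apart) and chr19:17558857-17559389 (26.4-fold and 7.51-fold). Then came chr2:97482161-97483087 with 25.7-fold and 4.89-fold and the longest summit distance of the 10, 278 bp. The peaks chr11:1593039-1593670 and chr1:1167490-1168763 were at 24.1-fold and 24.0-fold in Eso26 and at 6.04-fold and 6.01-fold in OE33. In all 8 of these regions the Eso26 interval lay above that of OE33; the other 2 of the 10, described below, were strong in both.

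The 10 shared peaks strongest in OE33 ran from 57.7-fold to 79.1-fold there, and from 6.75-fold to 31.9-fold in Eso26, with the OE33 interval above in each. The highest was chr7:128694614-128695517, with 79.1-fold in OE33 (117 fragments, interval 65.6 to 94.7) and 22.3-fold in Eso26 (40 fragments, interval 16.1 to 30.2). At chr2:71250973-71251382 the folds were 74.4 in OE33 and 10.4 in Eso26, on 110 and 16 fragments. At chr11:71325933-71326353 they were 67.7 and 7.98.

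The largest contrast among these 10 was at chr3:12458213-12458653, with 57.7-fold in OE33 (95 fragments, interval 46.8 to 70.4) and 6.75-fold in Eso26 (10 fragments, interval 3.56 to 11.9). The summits there lay 53 bp apart. At chr20:30196263-30196541 an Eso26 peak of 279 bp at 7.61-fold lay within an OE33 peak of 2560 bp at 59.9-fold. The peaks chr10:127511403-127512152, chr20:1306390-1306868, chr9:93517744-93518287 and chr9:92989157-92989798 stood at 63.7-fold, 62.4-fold, 59.0-fold and 57.7-fold in OE33 and at 10.2-fold, 12.5-fold, 13.0-fold and 11.1-fold in Eso26.

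**Figure D3:**
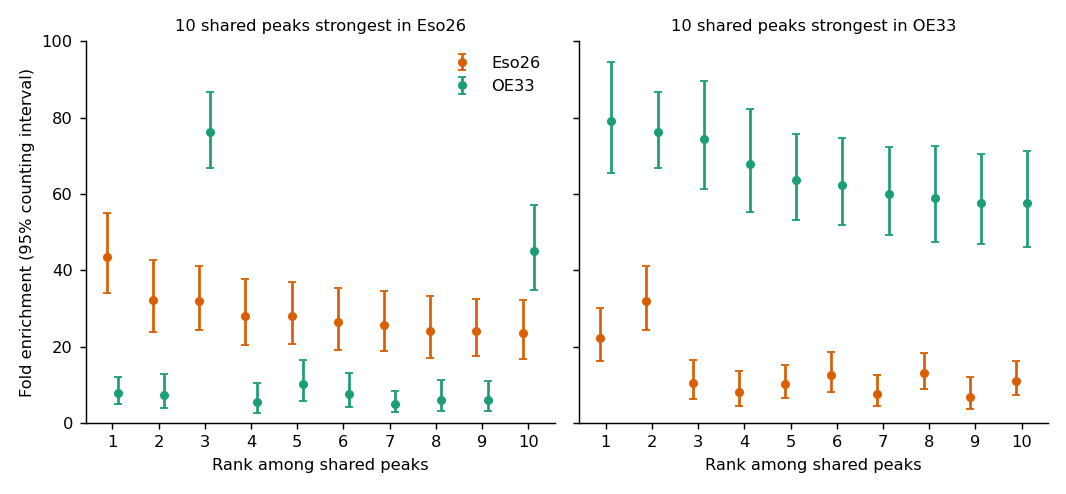
Fold enrichment (vertical axis, points, with exact Poisson 95% counting intervals) in Eso26 and OE33 at the 10 shared peaks strongest in Eso26 (left) and the 10 strongest in OE33 (right), in order of rank. On the left 8 of the 10 are lower in OE33; on the right all 10 are lower in Eso26, and rank 3 on the left is the same site as rank 2 on the right.

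Few members were strong in both lines. Among the 260 members with an OE33 partner in the top 10%, 16.2% were in the Eso26 top 10%, beside 15.1% of all members. These shares are close, so the 42 sites strong in both are not read as a distinct group. The 42 members in the top 10% of both lists ran from 12.3-fold to 31.9-fold in Eso26 and from 14.9-fold to 79.1-fold in OE33, with median pileups of 27 and 70 fragments, and lay on 20 chromosomes. The OE33 interval was above that of Eso26 at 27 of them and overlapped it at 15. At 20-fold or more in both lines stood 7 regions, and at 10-fold or more in both stood 95 (7.53% of the members). In each line by itself, 28.4% of Eso26 members and 28.0% of OE33 partners were at 10-fold or more. At 20-fold or more these shares were 2.54% and 15.0%.

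The site with the highest geometric mean of both folds was chr7:95237999-95238547. It stood at 31.9-fold in Eso26 (59 fragments, interval 24.4 to 41.0) and 76.3-fold in OE33 (227 fragments, interval 66.7 to 86.8), with the summits 6 bp apart. It was the third strongest member in Eso26 and the second in OE33. At chr1:153324755-153325605 the folds were 23.6 in Eso26 and 44.9 in OE33, with summits 35 bp apart.

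The other sites at 20-fold or more in both were chr7:28995272-28996613 (22.2-fold in Eso26 and 57.7-fold in OE33), chr17:7123262-7123993 (23.5-fold and 52.3-fold, summits 4 bp apart), chr20:24910846-24911551 (22.7-fold and 38.0-fold, summits 9 bp apart), chr12:66451251-66451591 (20.2-fold and 26.8-fold, summits 4 bp apart) and chr7:128694614-128695517, given above. At the chr20 and chr12 sites the intervals of the 2 lines overlapped. The 10 highest geometric means also included chr15:76603758-76604243 (16.0-fold and 49.0-fold), chr8:103666088-103666715 (16.5-fold and 47.4-fold) and chr12:7125579-7126425 (15.5-fold and 50.3-fold).

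Summits coincided best at sites strong in OE33, alone or in both lines. Summit position within the peaks was not part of the overlap rule, although the rule bounds how far apart summits can be. Over all pairs the median distance was 108 bp (quartiles 39 and 224 bp), with 381 pairs (29.5%) within 50 bp and 136 within 10 bp. The 42 sites strong in both lines had a median of 35 bp, and 29 of them (69.0%) lay within 50 bp. The 218 sites strong in OE33 alone had a median of 60 bp (44.5% within 50 bp), although their OE33 peaks were wide, with a median of 984.5 bp. The 853 sites strong in neither had a median of 128 bp (23.9% within 50 bp) with OE33 peaks of 355 bp at the median. The 149 sites strong in Eso26 alone were like the latter, at 132 bp (30.9% within 50 bp), while their OE33 partners rested on a median of 9 fragments. Depth moved with these distances, from a median OE33 pileup of 70 fragments at the sites strong in both to 10 at those strong in neither, and its part was not tested.

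**Figure D4:**
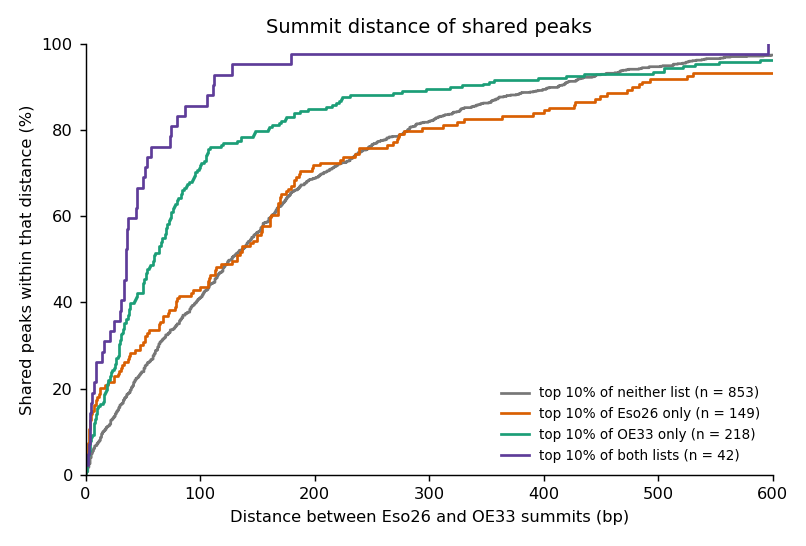
Cumulative share of shared peaks (vertical axis, percent) whose Eso26 and OE33 summits lie within a given distance in bp (horizontal axis, drawn to 600 bp), for the 4 strength classes. The curve of the 42 sites strong in both lines rises fastest, with 69.0% within 50 bp, against 23.9% for the 853 strong in neither.

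Shared peaks lay on all 23 chromosomes considered, with at most 11 in a window of 1 Mb. Chromosome 1 held the most, 116 (9.19% of the members, with 8.87% of Eso26 peaks and 9.63% of OE33 peaks), followed by chromosomes 2 (104), 7 (92) and 17 (91). The share of Eso26 peaks that were shared was highest on chromosome 7, at 27.3% (92 of 337, Wilson interval 22.8% to 32.3%), and then on chromosomes 20 (24.5%) and 6 (24.4%). Chromosome 7 held 8.54% of OE33 peaks but 4.86% of Eso26 peaks, and from the OE33 side its share was 11.2%, below the 13.4% of the whole list.

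The lowest shares of Eso26 peaks were on chromosome X, at 5.98% (11 of 184, interval 3.37% to 10.4%), chromosome 18, at 7.28% (11 of 151, interval 4.12% to 12.6%), and chromosome 19, at 10.5% (58 of 551, interval 8.23% to 13.4%). Chromosome 19 carried 7.95% of all Eso26 peaks and 3.52% of OE33 peaks, and from the OE33 side its share was 17.4%, above the 13.4% of the whole list. Across the 23 chromosomes, the share of Eso26 peaks that were shared went with the number of OE33 peaks (Spearman 0.60, a description of points that differ in length and number of peaks). Sharing is overlap with an OE33 peak, so the rule itself links these values.

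**Figure D5:**
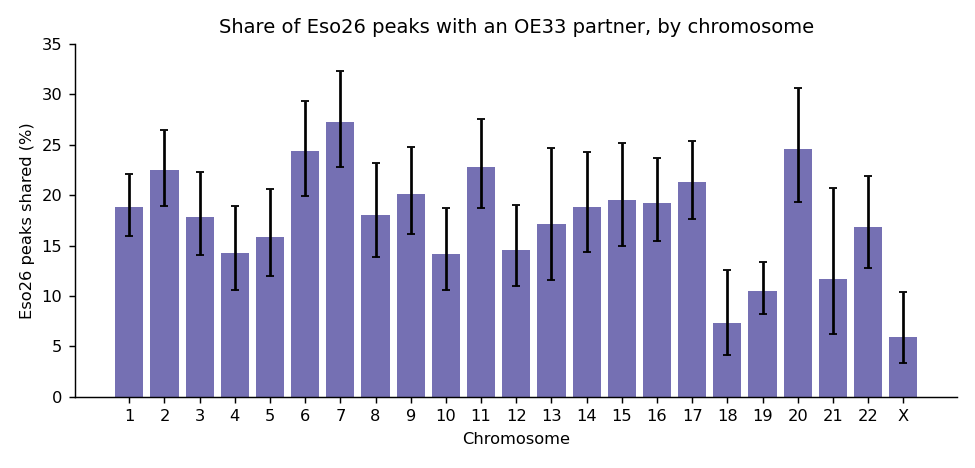
Share of Eso26 peaks with an OE33 partner (vertical axis, percent) on each chromosome (horizontal axis); bars are shares and error bars Wilson 95% intervals. Chromosome 7 is highest at 27.3% and chromosome X lowest at 5.98%.

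Neighbouring shared peaks had a median spacing of 714075 bp, with 58 of 1239 spacings (4.68%) within 10000 bp. In the whole Eso26 list, which is longer and so more closely spaced, the median was 134644 bp with 13.2% within 10000 bp, and in the OE33 list 20.5% were within that distance. The members fell into 785 windows of 1 Mb, out of 1948 with an Eso26 peak, and 501 of those windows held a single one. Another 115 windows held 3 or more each, with 423 shared peaks among them. The fullest window, chr16:2000001-3000000, held 11 shared peaks among 28 Eso26 and 27 OE33 peaks, and chr16:1-1000000 held 9. Next came chr11:64000001-65000000, chr11:67000001-68000000 and chr19:1000001-2000000 with 7 each. In the last, 7 of 51 Eso26 peaks were shared (13.7%), against 7 of 14 (50%) in the chr11:67000001-68000000 window.

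Where OE33 peaks were crowded, a larger share of Eso26 peaks was shared. The windows were picked by their OE33 peaks, and sharing is overlap with an OE33 peak, so this share supports nothing by itself. In the 30 windows of 1 Mb with 20 or more OE33 peaks, 104 of 335 Eso26 peaks (31.0%) were shared, against 17.5% elsewhere, and 12.7% of the OE33 peaks there had a partner, against 13.4% elsewhere. DNA copy number was not measured, and the part it has in crowded windows was not tested.

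A raised background marked few members, but in Eso26 a larger share of members than of all peaks. The expected pileup was 2 fragments or more at 19 Eso26 members (1.51%, with 0.505% of all Eso26 peaks) and at 29 OE33 partners (2.29%, with 3.1% of all OE33 peaks), and at 3 members it was so in both lines. The Eso26 list held 35 such peaks, of which these 19 were shared, whereas 18.2% of all its peaks were shared. The 19 Eso26 members include the first 3 of the members that rank low in Eso26 against their OE33 rank. The first, chr2:109815821-109816069, stood at 3.15-fold in Eso26, where 55 fragments stood over 16.8 expected, and at 11.04-fold in OE33. The others were chr17:36858538-36858821 and chr11:62609100-62609338, both with 5.04 expected fragments in Eso26. In OE33 the expected pileup was 1.99, 1.72 and 2.98 fragments, so only the chr11 region was raised in both lines. The opposite case, weak in OE33 for its Eso26 rank, was led by chr10:126150191-126150704, with 14.1-fold in Eso26, 3.61-fold in OE33 and summits 1 bp apart. The next was chr8:144660264-144660639, with 8.24-fold in Eso26 and 3.61-fold in OE33. Both had a raised expected pileup in OE33, of 2.32 fragments. The widest member in Eso26, chr1:2158594-2161109, spanned 2516 bp at 23.5-fold, with 7.38-fold in OE33.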

How the data were processed

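The submitters' processing notes name Trim Galore, STAR, Bowtie, Picard, MACS2 and the build hg19 without roles; peak names in the lists contain bwa, and the sources used here do not settle the aligner, the control library or the pooling of replicates. Each deposited peak list gives a fold enrichment (ratio), a −log10 p and a −log10 q per peak, all computed by the authors' peak caller. RNA-seq values are deposited raw counts per gene, with totals from 16866996 to 23019840, scaled here to CPM by the total. The sources used here do not give the counter or its strand setting.

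Overlaps were computed in Python 3.11.15 and checked with bedtools 2.31.1. Starts were converted to count from 1. MACS2 adds 1 to the observed and the expected pileup; the pileup was solved from fold and Poisson p as the whole number that met the −log10 p within 0.0001, which held for 100% of peaks. The overlap and pileup steps were tested on simulated data. Percentile ranks and 10% steps are within a list. Regions to name were drawn from the 10 strongest in each line and by geometric mean, the 5 extremes of the rank ratio in each direction, the 3 widest, those at the edge of the rule, and the fullest windows, with the leading ones of the rank-ratio and width sets printed; the sites at 20-fold or more in both were chosen after their values were seen. The members and lists were chosen with earlier results of these data known. Without an hg19 sequence or annotation in use, no peak is tied to a gene here, and planned motif and gene comparisons were not run. Alternatives were other overlap rules, stricter thresholds, merged peaks and, added after seeing the data, limits on pileup and expected pileup.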

Additional observations from a re-analysis of the deposited data

Results flagged for a closer look

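Outside chromosomes 1 to 22 and X, which the described set leaves out, 43 of 75 Eso26 peaks overlapped an OE33 peak, and 36 of 156 OE33 peaks overlapped an Eso26 peak. These peaks are in data that the comparisons do not use, and how well reads map to these sequences was not examined. Of the 43, 31 lay on gl000199, a sequence assigned to chromosome 9 without a position.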

How the results depend on the processing

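No paired analysis was possible because each line has 1 peak list and no result comes from a test. The numbers of shared Eso26 peaks and OE33 partners, 1262 and 1268, stayed within 1.5 times with an overlap of 50% of the shorter peak, a fold of at least 5, merged peaks, all sequences, the top 1% left out, or an expected pileup under 2. They fell to 517 and 517 with a reciprocal overlap of 50%, 616 and 616 with summits within 100 bp, 782 and 780 at a −log10 q of at least 5, and 679 and 675 at a pileup of at least 10 fragments. The 785 windows became 404, 478 and 485 with the reciprocal overlap, the summit rule and the pileup limit. The median fold in Eso26 was 8.05 with the reciprocal overlap, 8.05 with the summit rule, 8.16 at the stricter q and 8.15 at the pileup limit. The median fold in OE33 was 7.01 with 50% of the shorter peak, 7.64 with the summit rule, 7.84 at the stricter q, 7.19 at 5-fold and 8.72 at the pileup limit. The median summit distance was 85 bp with 50% of the shorter peak, 67 bp with the reciprocal overlap, 37 bp with the summit rule, 93.5 bp at the stricter q and 97.5 bp at the pileup limit. Apart from the summit rule, each of these alternatives removes peaks or pairs by construction. The summit rule does not ask for an overlap and can also add pairs. It matched 616 Eso26 peaks, where 615 overlapping pairs had summits within 100 bp. The share of the 50 strongest Eso26 peaks that were shared fell from 50% to 34% at the pileup limit, where the share of all Eso26 peaks fell from 18.2% to 12.7% and that of the 50 strongest OE33 peaks from 82% to 76%. Depth limits single folds: a partner with 7 fragments has an interval from 2.56-fold to 10.3-fold at chr13:79175616-79176817.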
